A study of Mus musculus with 32 samples.

Results

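The core circadian clock was followed in mouse liver through 10 genes. They are Arntl (which encodes BMAL1), Clock and Npas2, the period genes Per1, Per2 and Per3, the cryptochrome genes Cry1 and Cry2, and Nr1d1 and Nr1d2, which encode the nuclear receptors REV-ERBα and REV-ERBβ. The genes were chosen by symbol, and all 10 were found, 1 row each, among the 35275 genes of the deposited table. All 10 passed a filter on low counts that left 14438 genes for testing. Their transcripts were counted by RNA sequencing in whole liver. There were 32 liver samples of male mice in 8 groups of 4, called livers here, and the labels do not say outright that each came from an animal of its own.

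The clock is a feedback loop of transcription that runs with a period of about a day in nearly every cell. BMAL1 pairs with CLOCK or with its close relative NPAS2, and the pair binds E-box sequences and switches on the period, cryptochrome and REV-ERB genes. Period and cryptochrome proteins return to the nucleus and block that pair. REV-ERB proteins bind ROR response elements and repress Arntl, Npas2, Clock and Cry1, while ROR receptors activate through the same elements. In liver the loop is set by feeding time as well as by light, and Per1 and Per2 are also induced directly by glucocorticoid and cAMP signals. Transcripts of Arntl and Npas2 and those of Per3, Nr1d1 and Nr1d2 peak at roughly opposite times of day.

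The animals were C57BL/6 males aged 16 weeks. Mice lacking Fatp2 (Fatp2-/-, called KO here) and wild-type controls (WT) were on a ketogenic diet (KD) or on CD, labelled a control-ketogenic diet, from 12 weeks of age and were fasted for 24 or 4 h before death by CO2. Fatp2, encoded by Slc27a2, takes up long-chain fatty acids and activates very long-chain ones. The 8 groups are KO and WT on KD and CD, each at 24 h and 4 h of fasting. Every group fasted for some hours, so none shows the fed state. The labels do not give the hour of the day at which livers were taken. A difference in hour of collection between groups and an effect of diet, genotype or fasting on these genes cannot be told apart. The same holds for a batch that might follow the numbering of the sample titles, which runs in separate ranges by genotype and fasting time and whose meaning is not given.

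The files give positions on build GRCm38. Of the activators, Arntl lies on chromosome 7 (113207465 to 113314122), Clock on chromosome 5 (76212177 to 76304548) and Npas2 on chromosome 1 (39193731 to 39363234). The repressors Per1, Per2 and Per3 lie on chromosome 11 (69095217 to 69109960), chromosome 1 (91415982 to 91459324) and chromosome 4 (151003652 to 151044665), and Cry1 and Cry2 on chromosome 10 (85131702 to 85185054) and chromosome 2 (92403646 to 92434043). Nr1d1 lies on chromosome 11 (98767932 to 98775333) and Nr1d2 on chromosome 14 (18204054 to 18239127). Arntl, Npas2 and Per1 are on the plus strand and the other 7 on the minus strand.

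Total counts ran from 13406678 to 24700310 per library, so that 3 counts corresponded to 0.112 to 0.230 CPM (counts scaled to the normalised library size). Slc27a2 ran from 121 to 318 CPM in the 16 KO libraries and from 905 to 2229 CPM in the 16 WT libraries. All 6 hepatocyte markers examined had reads in every library. Skeletal muscle transcripts stood out in 4 libraries, with 78.4 to 178 CPM of the muscle actin Acta1, against at most 0.504 CPM in the other 28. These were KO KD 4 h replicate 4, KO CD 24 h replicates 1 and 2 and WT CD 24 h replicate 1. A scale was built from 68 genes outside the clock lists that were called by diet in WT livers at both fasting times, with 0 for the mean of WT CD and 1 for that of WT KD. On it, replicate 4 of KO CD 24 h was at 0.807 and its 3 group mates between 0.112 and 0.397. Replicate 4 of KO KD 24 h was at 0.330 and its group mates between 0.755 and 0.786. Scd1, a fatty acid desaturase gene chosen after its values were seen, had 130 CPM in replicate 4 of KO CD 24 h and 1890 to 2815 CPM in its group mates. It had 3766 CPM in replicate 4 of KO KD 24 h and 76.5 to 87.7 CPM in its group mates. On these measures both libraries lay nearer to the other diet than to their label, and whether they were exchanged was not tested. They are kept under their labels, and results on KO livers at 24 h depend on that. Tests of members and list genes that rest on these 2 libraries are given with and without them, and the fit without the 4 libraries with muscle transcripts is given where it changed the call of a member. That fit leaves replicates 3 and 4 of KO CD 24 h, of which replicate 4 is 1 of the 2.

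Promoter windows are shown for the members whose start regions held a clock element, because E-box, D-box and ROR elements are the sites through which factors of the loop are known to act. A RefSeq table of promoters (GRCm38.p6, 250 bases before to 50 bases after an annotated start) matched 9 of the 10 members, all but Per2, with 13 windows. The windows were searched on both strands for the E-box CACGTG, the D-box TTATGNAA (bound by DBP, TEF, HLF and NFIL3), the ROR response element (AANT followed by AGGTCA or GGGTCA), the cAMP response element TGACGTCA and its core TGACG, which the full element contains. Of the members, 2 held an E-box, 2 a D-box, 1 a ROR response element, 3 a cAMP core and 0 a full cAMP element. Over all 27025 genes of the table the shares of genes with a match in any window were 8.09% for the E-box, 3.99% for the D-box, 0.514% for the ROR response element, 23% for the cAMP core and 2.03% for the full element. A match is a run of letters and does not show that a factor binds there. The E-box of Per1 began 166 bases before the start and its D-box 24 bases before it. The D-boxes of Per3 began 205 and 158 bases before the start, the E-box of Cry1 60 bases before it, and the ROR response element of Arntl 27 bases after it. In the sequences below, read 5′ to 3′ on the strand of the gene, capitals mark the E-box, D-box and ROR response element matches.
Arntl, chr7:113207261-113207560, plus strand: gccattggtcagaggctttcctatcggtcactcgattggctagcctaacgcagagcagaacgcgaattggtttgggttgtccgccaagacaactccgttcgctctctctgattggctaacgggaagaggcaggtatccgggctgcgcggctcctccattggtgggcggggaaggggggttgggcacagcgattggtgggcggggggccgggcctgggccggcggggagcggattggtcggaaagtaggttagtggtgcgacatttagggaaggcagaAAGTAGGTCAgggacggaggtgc
Per1, chr11:69098699-69098998, plus strand: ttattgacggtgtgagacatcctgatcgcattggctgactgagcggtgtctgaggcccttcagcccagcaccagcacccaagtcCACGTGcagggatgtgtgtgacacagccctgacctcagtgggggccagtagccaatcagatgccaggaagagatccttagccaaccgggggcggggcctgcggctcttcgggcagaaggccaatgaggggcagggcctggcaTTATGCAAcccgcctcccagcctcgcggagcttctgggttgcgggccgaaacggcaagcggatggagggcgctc
Per3, chr4:151044616-151044915, minus strand: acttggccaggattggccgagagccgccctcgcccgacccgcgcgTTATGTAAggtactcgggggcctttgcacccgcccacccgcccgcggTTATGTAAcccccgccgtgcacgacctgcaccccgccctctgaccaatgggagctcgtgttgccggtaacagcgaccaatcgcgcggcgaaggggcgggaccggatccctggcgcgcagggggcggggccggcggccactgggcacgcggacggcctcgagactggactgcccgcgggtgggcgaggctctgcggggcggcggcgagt
Cry1, chr10:85185005-85185304, minus strand: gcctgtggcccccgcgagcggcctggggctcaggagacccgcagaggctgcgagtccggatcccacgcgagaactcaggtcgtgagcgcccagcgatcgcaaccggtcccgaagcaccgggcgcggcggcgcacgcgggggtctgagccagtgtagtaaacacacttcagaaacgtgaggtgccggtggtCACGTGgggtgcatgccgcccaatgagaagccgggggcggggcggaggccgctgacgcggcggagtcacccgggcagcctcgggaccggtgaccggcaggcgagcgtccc

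Scaled for transcript length (FPKM), the order of the members changed with diet. In WT KD livers at 4 h Nr1d2 led with 43.7 ± 9.69 FPKM (mean ± SD, n = 4), followed by Per3 with 13.7 ± 3.00, Per1 with 12.7 ± 1.55, Per2 with 12.7 ± 2.13 and Cry2 with 11.9 ± 0.607. Below these came Nr1d1 with 9.73 ± 2.97, Clock with 5.18 ± 0.772 and Cry1 with 4.45 ± 0.838, and at the end Arntl with 0.498 ± 0.243 and Npas2 with 0.0246 ± 0.0167 FPKM. From Per3 to Nr1d1 each neighbour in the order differed by less than the larger of the 2 SDs, as did Clock and Cry1. In WT CD livers at 4 h Nr1d1 led with 31.5 ± 4.89 FPKM, ahead of Nr1d2 with 14.97 ± 2.62. Cry2 had 7.90 ± 1.22, Clock 6.86 ± 1.41, Arntl 6.13 ± 2.60 and Cry1 4.09 ± 1.10 FPKM. Per1 with 3.39 ± 0.780, Per2 with 3.27 ± 0.0902, Per3 with 1.05 ± 0.942 and Npas2 with 1.02 ± 0.656 FPKM closed the order. From Cry2 to Per2 each neighbour differed by less than the larger SD, as did Per3 and Npas2. Npas2 ranked last in all 8 groups, and Nr1d2 ranked first or second in all 8.

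**Figure D1:**
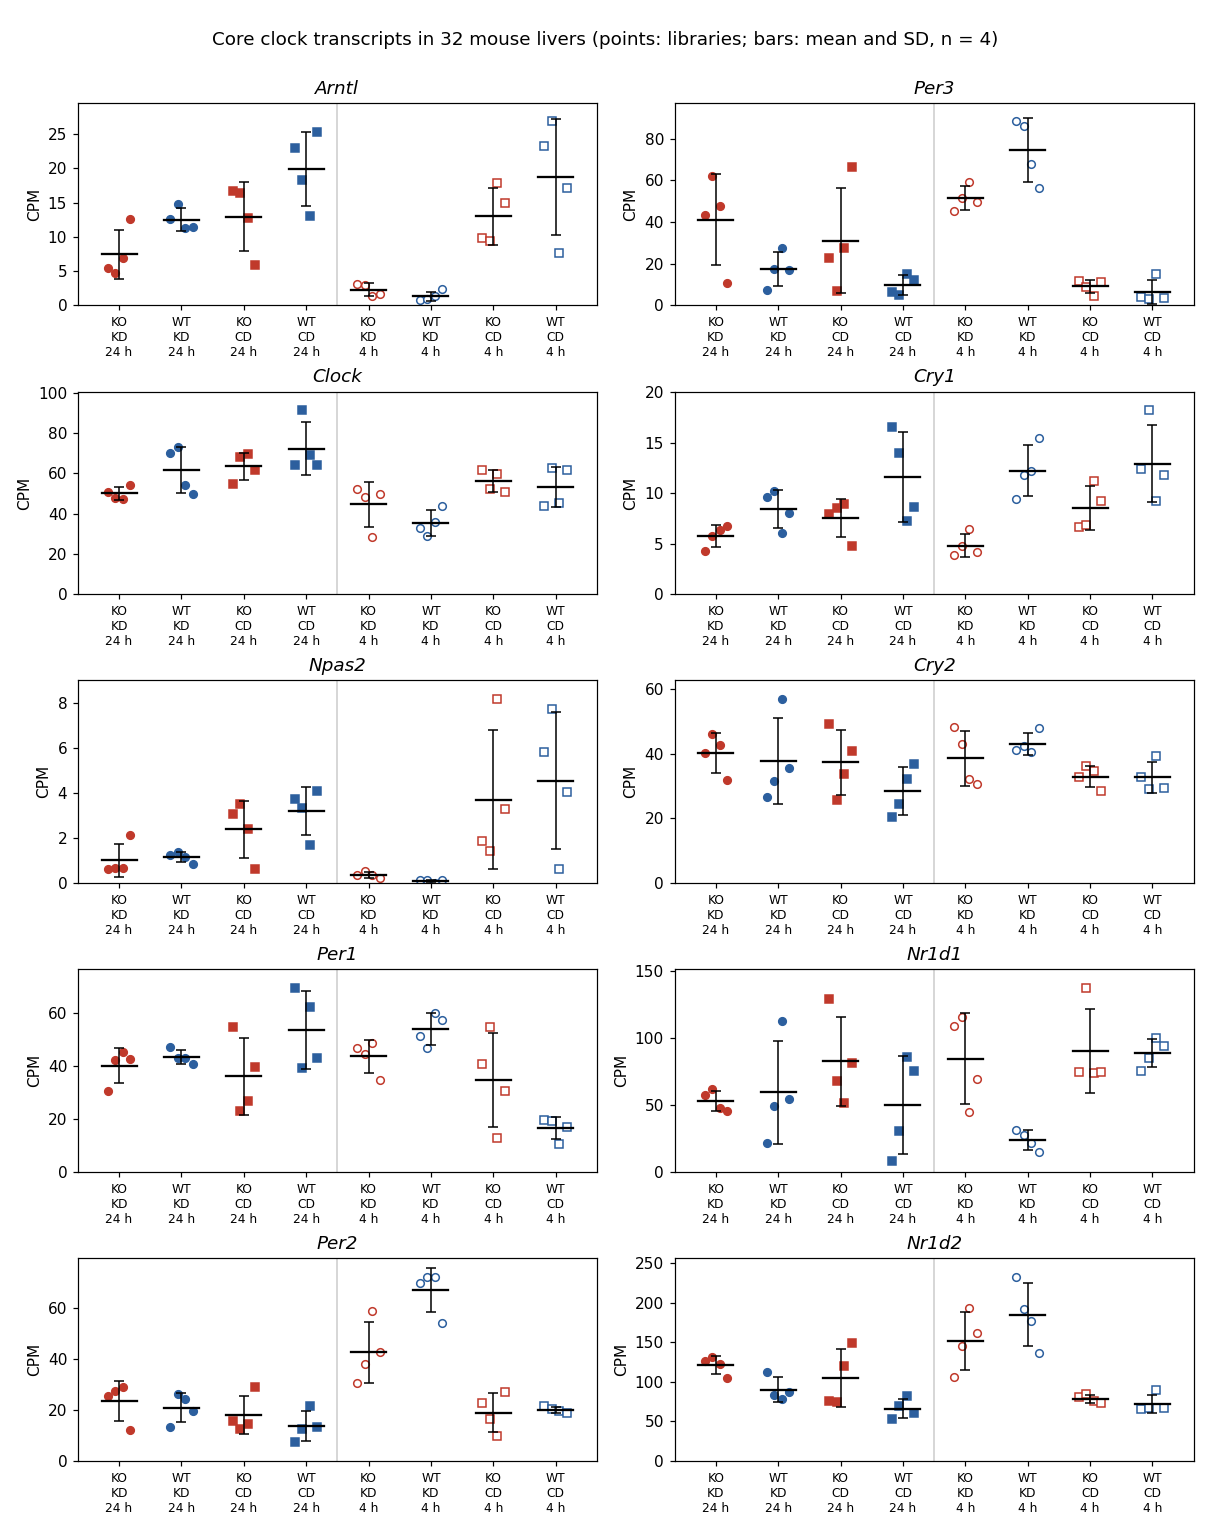
Level of each core clock gene (CPM, linear axis from 0) in every library of the 8 groups, with KO groups in red and WT groups in blue, circles for KD and squares for CD, filled symbols for 24 h and open symbols for 4 h. Black lines are the mean and SD of 4 samples. At 4 h, the KD groups sit below the CD groups for Arntl and Npas2 and above them for Per2, Per3 and Nr1d2.

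At 4 h of fasting, KD livers held less Arntl and Npas2 and more Per2, Per3 and Nr1d2 than CD livers in both genotypes. In WT livers 8 of the 10 members passed edgeR's quasi-likelihood test at an adjusted p under 0.05, 4 higher and 4 lower on KD, where 10.8% of all genes tested were called higher, 16.5% lower and 27.3% in either direction. In KO livers 6 of 10 passed, 3 higher and 3 lower, where 2.56% of all genes were called higher, 4.66% lower and 7.22% in either direction. The median log2 fold change of the members was 0.07 in KO livers and 0.16 in WT livers, beside 0.01 and 0.03 over all genes, with as many members higher as lower. In a fit without the 4 libraries with muscle transcripts, 5 members passed in KO livers (Cry1 did not) and 8 in WT livers. Of all genes 5.96% and 32.6% were called there.

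Among the activators, Arntl changed most clearly. KO KD livers had 3.19, 3.02, 1.34 and 1.70 CPM of Arntl, against 9.77, 9.35, 17.9 and 14.9 CPM in KO CD livers. WT KD livers had 0.788, 0.896, 1.31 and 2.33 CPM, against 23.2, 26.9, 7.61 and 17.2 CPM in WT CD livers. All KD libraries lay below all CD libraries of the same genotype, and WT CD replicate 3, with 7.61 CPM, was the lowest of the CD libraries. The log2 fold change was -2.47 ± 0.39 in KO livers (SE, edgeR adjusted p = 0.000345) and -3.82 ± 0.42 in WT livers (edgeR adjusted p = 3.08e-07).

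Npas2 fell to a few reads per library. KO KD livers had 8, 10, 6 and 4 counts of Npas2, against 40, 30, 201 and 70 in KO CD livers (log2 fold change -3.27 ± 0.65, edgeR adjusted p = 0.00229). WT KD livers had 2, 3, 0 and 2 counts, all at or below 3, against 92, 128, 11 and 66 in WT CD livers. The 7 counts of the WT KD group against 297 of the WT CD group, allowing for library size, gave a ratio of 0.0210 with a 95% counting interval of 0.00836 to 0.0437, which covers counting error and not the spread between livers. edgeR called the difference in WT livers at an adjusted p of 1.03e-05. In both genotypes the KD and CD libraries did not overlap, and WT CD replicate 3, with 11 counts, was again the lowest of the CD libraries.

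Clock, the partner of BMAL1, varied less. It had 32.7, 29.1, 35.7 and 43.95 CPM in WT KD livers, against 43.7, 62.5, 45.4 and 61.5 CPM in WT CD livers, and these groups overlapped at 1 pair of values near 44 CPM. The log2 fold change of -0.59 ± 0.17 passed the test (edgeR adjusted p = 0.0114), but leaving out replicate 4 of WT CD 4 h gave an adjusted p of 0.0588 and leaving out replicate 2 of WT KD 4 h gave 0.056, with a log2 fold change of -0.48 in each. In KO livers Clock had 52.1, 48.3, 28.2 and 50.01 CPM on KD, against 61.5, 52.1, 59.9 and 50.98 CPM on CD, and -0.33 ± 0.17 on the log2 scale did not pass (edgeR adjusted p = 0.229).

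Of the period genes, whose proteins repress the activators, Per3 showed the largest difference. KO KD livers had 45.3, 51.7, 59.2 and 49.7 CPM of Per3, against 11.5, 9.01, 4.52 and 11.3 CPM in KO CD livers. WT KD livers had 88.4, 85.96, 67.9 and 56.2 CPM, against 4.24, 3.08, 15.1 and 3.62 CPM in WT CD livers, where replicate 3 at 15.1 CPM stood above the other 3. The groups did not overlap in either genotype. The log2 fold change was 2.50 ± 0.54 in KO livers (edgeR adjusted p = 0.00508) and 3.51 ± 0.57 in WT livers (edgeR adjusted p = 5.37e-05).

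Per2 moved the same way. KO KD livers had 30.6, 38.01, 58.6 and 42.6 CPM of Per2, against 22.5, 16.5, 9.60 and 26.9 CPM in KO CD livers (log2 fold change 1.17 ± 0.31, edgeR adjusted p = 0.0192). WT KD livers had 69.5, 72.1, 71.7 and 54.1 CPM, against 21.4, 20.1, 19.3 and 18.8 CPM in WT CD livers (log2 fold change 1.75 ± 0.31, edgeR adjusted p = 0.000157). No KD library overlapped a CD library of its genotype. In KO livers the call was lost without KO CD 4 h replicate 2 (log2 fold change 1.11, edgeR adjusted p = 0.0582), without KO CD 4 h replicate 3 (0.95, 0.0729) and without KO KD 4 h replicate 3 (0.97, 0.0909).

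Per1, the period gene most quickly induced by hormonal signals, rose on KD in WT livers. WT KD livers had 51.5, 46.97, 60.02 and 57.4 CPM of Per1, against 19.4, 19.2, 10.7 and 16.9 CPM in WT CD livers, with no overlap (log2 fold change 1.71 ± 0.29, edgeR adjusted p = 9.84e-05). KO KD livers had 46.7, 44.6, 48.7 and 34.8 CPM, against a wide range of 40.9, 54.7, 12.8 and 30.6 CPM in KO CD livers. That log2 fold change was 0.33 ± 0.28, with a 95% interval of -0.25 to 0.91, and did not pass (edgeR adjusted p = 0.477). The test of the genotype difference in the diet response of Per1 did not pass either, with -1.37 ± 0.40 on the log2 scale (edgeR adjusted p = 0.24). Without KO CD 4 h replicate 3, the lowest of its group for Per1, that difference was -1.65 and passed (edgeR adjusted p = 0.0346).

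The cryptochromes, the second set of repressors, differed less. Cry1 had 3.88, 4.76, 6.42 and 4.16 CPM in KO KD livers, against 6.67, 6.85, 11.2 and 9.25 CPM in KO CD livers, and all KD values were below all CD values. The log2 fold change of -0.83 ± 0.26 was close to the threshold (edgeR adjusted p = 0.0491). It did not pass without any 1 of 7 of the 8 libraries compared, all but KO KD 4 h replicate 3, with adjusted p between 0.0523 and 0.167. Nor did it pass with RLE scaling (edgeR adjusted p = 0.0586), without the filter on low counts (0.06) or in a fit of the 8 libraries alone (0.0567). In WT livers Cry1 had 9.39, 11.8, 12.2 and 15.5 CPM on KD, against 12.4, 18.2, 9.23 and 11.8 CPM on CD, and the log2 fold change was -0.08 ± 0.25, with a 95% interval of -0.60 to 0.44. Cry2 did not pass in KO livers (0.23 ± 0.21 on the log2 scale, edgeR adjusted p = 0.507). In WT livers Cry2 had 41.2, 42.2, 40.5 and 47.9 CPM on KD, against 32.7, 29.2, 39.3 and 29.5 CPM on CD, without overlap, and 0.39 ± 0.21 did not pass (edgeR adjusted p = 0.152). In a fit of those 8 libraries alone it did (edgeR adjusted p = 0.0114).

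The REV-ERB genes, repressors of Arntl and Npas2, went opposite ways in WT livers. Nr1d2 had 107, 146, 194 and 161 CPM in KO KD livers, against 80.5, 84.5, 75.6 and 73.03 CPM in KO CD livers (log2 fold change 0.95 ± 0.20, edgeR adjusted p = 0.00396). It had 233, 193, 177 and 137 CPM in WT KD livers, against 65.9, 67.2, 89.6 and 67.3 CPM in WT CD livers (log2 fold change 1.35 ± 0.20, edgeR adjusted p = 1.82e-05). The Nr1d2 groups did not overlap in either genotype. Nr1d1 had 109, 116, 44.9 and 69.2 CPM in KO KD livers, against 75.00, 138, 74.01 and 74.9 CPM in KO CD livers, where replicate 2 stood alone at the top, and the log2 fold change was -0.09 ± 0.45, with a 95% interval of -1.03 to 0.85. It had 31.3, 27.8, 21.9 and 14.97 CPM in WT KD livers, against 75.9, 85.4, 101 and 94.2 CPM in WT CD livers. The highest WT KD value of Nr1d1, 31.3 CPM, lay below the lowest WT CD value, 75.9 CPM, and the log2 fold change was -1.89 ± 0.47 (edgeR adjusted p = 0.00407).

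Nr1d1 shares 263 exon bases with Thra, a thyroid hormone receptor gene on the opposite strand, in the GENCODE M21 annotation. No source used here gives the strand setting of the counting, so reads from those bases cannot be told apart. Thra was lower as well on KD in WT livers at 4 h, with 9.46, 10.5, 8.24 and 10.9 CPM, against 19.3, 22.1, 18.2 and 22.4 CPM on CD (log2 fold change -1.07 ± 0.14, edgeR adjusted p = 4.72e-06). Its part in the Nr1d1 counts was not tested. Cry2 shares 295 exon bases with D930015M05Rik and Arntl 33 with Gm45355, both on the opposite strand.

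Other transcripts moved with diet at 4 h. The summed level of 6 hepatocyte markers had a median of 38464 CPM in KO KD livers (30042 to 51827), against 68579 CPM (62991 to 71554) in KO CD livers, and 36456 CPM in WT KD livers (28671 to 50404), against 70561 CPM (61839 to 78262) in WT CD livers. Of the 6, 2 were lower on KD in KO livers and 3 in WT livers, led by the urea cycle enzyme Cps1 and by Alb. Most of the sum was Alb, with 54070 of 71122 CPM in KO CD replicate 1 and 18633 of 30042 CPM in KO KD replicate 4. Apoa1, another of the 6, ran from 5709 to 7541 CPM in KO KD livers, against 6042 to 9372 CPM in KO CD livers. In WT livers it ran from 5918 to 7209 CPM on KD, against 7477 to 8357 CPM on CD. Of 8 Kupffer cell and macrophage markers edgeR called 0 by diet at 4 h in either genotype. None had an unadjusted p under 0.05, beside 3524 of the 14438 genes in KO livers and 5794 in WT livers. The sum of these markers ran from 339 to 474 CPM in WT KD livers and from 291 to 341 CPM in WT CD livers. The adipocyte list, of which Cfd alone could be tested, ran from 0.920 to 12.3 CPM in WT KD livers and from 0.389 to 0.845 CPM in WT CD livers. The part of these in the clock results was not tested. In bulk tissue, fewer cells of a type and less RNA per cell cannot be told apart.

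**Figure D2:**
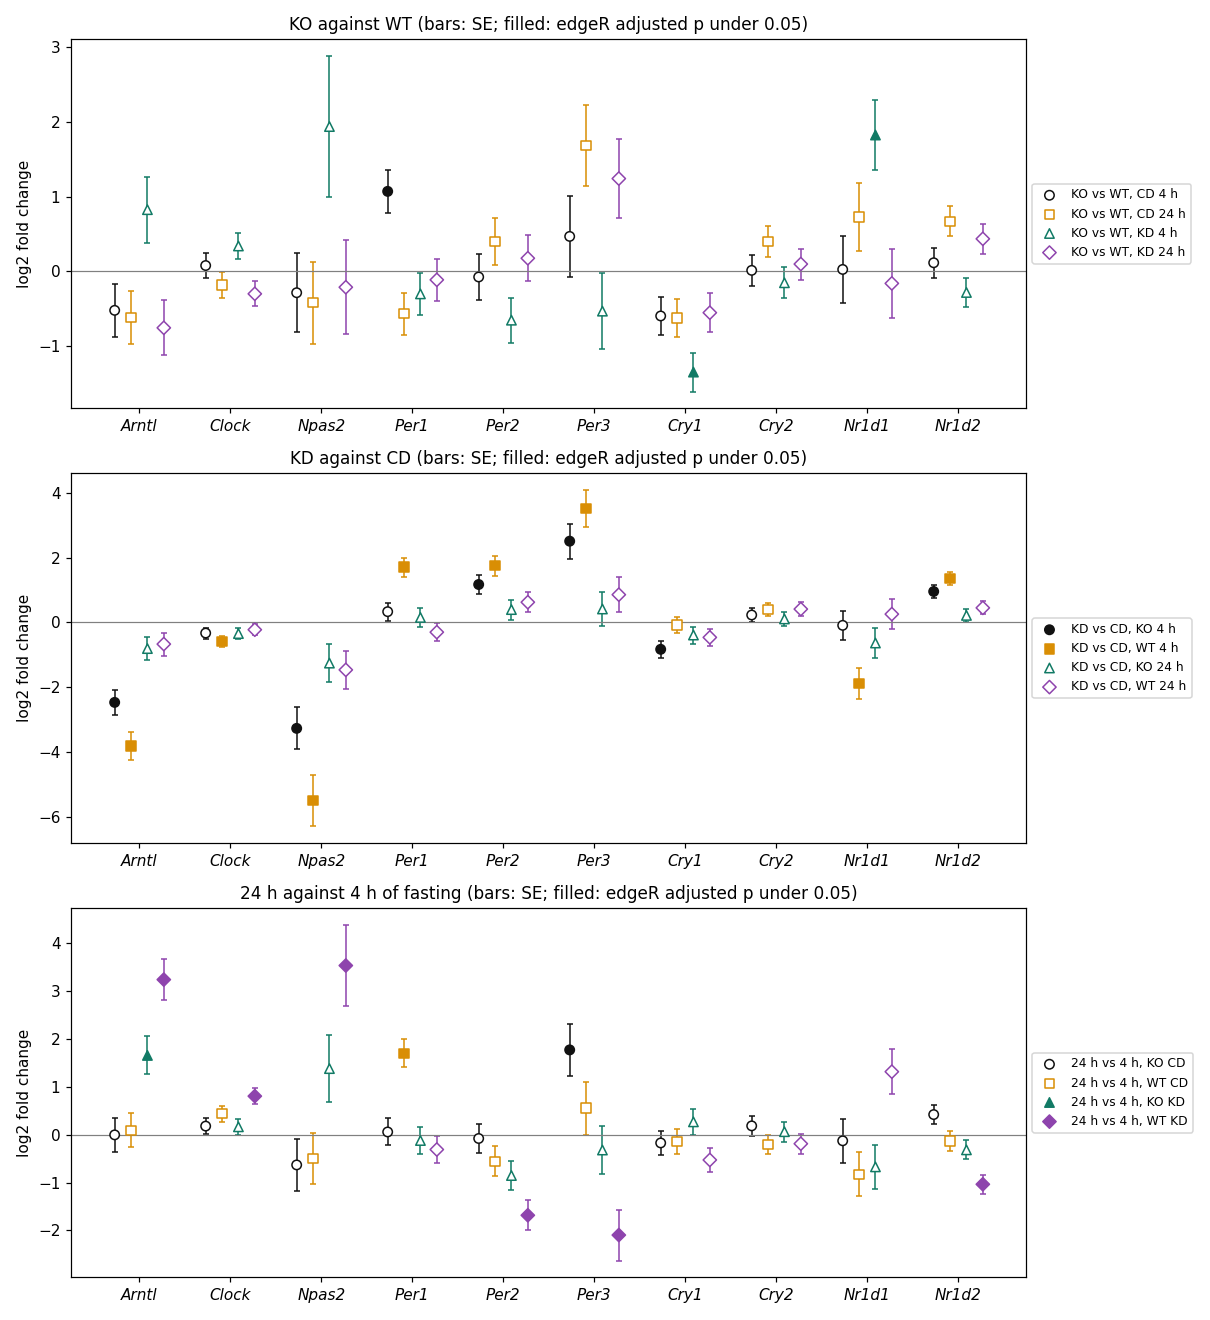
Log2 fold change of each core clock gene for KO against WT (top), KD against CD (middle) and 24 h against 4 h (bottom), with 4 comparisons each, bars for the SE and filled symbols where the edgeR adjusted p was under 0.05. Filled symbols gather in KD against CD at 4 h (6 in KO, 8 in WT) and in 24 h against 4 h for WT KD (6). The values of Npas2 that involve WT KD at 4 h rest on 7 counts and depend on the prior count of the fit.

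After 24 h of fasting no member passed the diet comparison in either genotype. In KO livers 1 of the 14438 genes was called (0.00693%), and in WT livers 2.78% were. Of the 14438 genes, 1766 had an unadjusted p under 0.05 in KO livers and 2334 in WT livers. In each genotype 2 members did, and DESeq2 called 0 members in each. In KO livers these were Arntl (-0.81 ± 0.37 on the log2 scale, edgeR adjusted p = 0.368) and Npas2 (-1.26 ± 0.60, 0.395). In WT livers they were Npas2 (-1.46 ± 0.59, 0.19) and Nr1d2 (0.45 ± 0.20, 0.252).

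The values at 24 h show where the groups met. Arntl had 5.52, 4.69, 6.94 and 12.6 CPM in KO KD livers, against 16.7, 16.4, 12.8 and 5.85 CPM in KO CD livers. Per3 had 43.5, 62.2, 47.9 and 10.8 CPM in KO KD livers, against 22.8, 7.12, 27.3 and 66.4 CPM in KO CD livers. In both genes replicate 4 of each group lay nearer to the other diet's values. Without those 2 libraries the log2 fold change in KO livers was -1.42 ± 0.37 for Arntl (edgeR adjusted p = 0.0831), -2.17 ± 0.64 for Npas2 (0.135) and 1.42 ± 0.50 for Per3 (0.215), and still 0 members passed, where 0.355% of all genes did. WT livers had 12.6, 14.8, 11.2 and 11.4 CPM of Arntl on KD, against 22.97, 18.3, 12.98 and 25.3 CPM on CD, with a 95% interval of -1.41 to 0.07 for the log2 fold change. Npas2 had 1.23, 1.40, 1.16 and 0.858 CPM in WT KD livers, against 3.74, 3.32, 1.70 and 4.07 CPM in WT CD livers, and these did not overlap. Clock had 50.7, 47.8, 47.5 and 54.2 CPM in KO KD livers, against 54.6, 67.95, 69.7 and 61.9 CPM in KO CD livers, also without overlap, and -0.34 ± 0.17 on the log2 scale did not pass (edgeR adjusted p = 0.411). Its value without the 2 libraries was -0.40 ± 0.20 (edgeR adjusted p = 0.42).

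The longer fast changed 6 members in WT KD livers and 1 in each of the other 3 backgrounds. In WT KD livers Arntl, Npas2 and Clock rose and Per2, Per3 and Nr1d2 fell at 24 h relative to 4 h, where 6.26% of all genes were called higher, 4.65% lower and 10.9% in either direction. This comparison and that of diet in WT livers at 4 h share the WT KD 4 h livers, so their opposite signs are not independent. Arntl had 12.6, 14.8, 11.2 and 11.4 CPM at 24 h, against 0.788, 0.896, 1.31 and 2.33 CPM at 4 h (log2 fold change 3.24 ± 0.42, edgeR adjusted p = 1.27e-05). Npas2 had 16, 20, 16 and 12 counts at 24 h, against 2, 3, 0 and 2 at 4 h, a ratio of 12.4 with a 95% counting interval of 5.70 to 32.2 (edgeR adjusted p = 0.0069). Clock had 70.1, 72.96, 54.3 and 49.7 CPM at 24 h, against 32.7, 29.1, 35.7 and 43.95 CPM at 4 h (0.80 ± 0.17 on the log2 scale, edgeR adjusted p = 0.00233). None of the 3 activators overlapped between the fasting times. The share of all genes without overlap was not counted, here or in the other comparisons.

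Among the repressors in WT KD livers, Per2 had 13.4, 26.3, 24.01 and 19.4 CPM at 24 h, against 69.5, 72.1, 71.7 and 54.1 CPM at 4 h (log2 fold change -1.68 ± 0.31, edgeR adjusted p = 0.000612). Per3 had 7.45, 17.3, 27.7 and 17.2 CPM at 24 h, against 88.4, 85.96, 67.9 and 56.2 CPM at 4 h (log2 fold change -2.10 ± 0.53, edgeR adjusted p = 0.01). Nr1d2 had 113, 83.3, 78.1 and 86.6 CPM at 24 h, against 233, 193, 177 and 137 CPM at 4 h (log2 fold change -1.04 ± 0.20, edgeR adjusted p = 0.000975). These 3 groups of values did not overlap either. Nr1d1 spread widely at 24 h, with 21.7, 49.6, 113 and 54.3 CPM, against 31.3, 27.8, 21.9 and 14.97 CPM at 4 h, and its 1.31 ± 0.47 did not pass (edgeR adjusted p = 0.0678). It passed without the 4 libraries with muscle transcripts, none of which belongs to these groups (1.32, edgeR adjusted p = 0.0167), and without WT KD 24 h replicate 1 (1.57, 0.0239). Thra rose here too (0.98 ± 0.15, edgeR adjusted p = 5.16e-05), and its part in the Nr1d1 counts was not tested. Of the 6 hepatocyte markers 2 rose, with a median sum of 50528 CPM at 24 h, against 36456 CPM at 4 h, and 2 of 5 sinusoidal endothelium, 1 of 4 stellate cell and 1 of 3 erythroid markers fell, as did the 1 adipocyte gene and the 1 pancreas gene that could be tested, while 1 of 4 cholangiocyte markers rose. The adipocyte list summed to 0.871 to 2.09 CPM at 24 h, against 0.920 to 12.3 CPM at 4 h. The part of these in the clock results was not tested.

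In WT CD livers the gene that passed was Per1, where 18.5% of all genes were called. It had 69.6, 39.2, 62.3 and 43.1 CPM at 24 h, against 19.4, 19.2, 10.7 and 16.9 CPM at 4 h, without overlap (log2 fold change 1.70 ± 0.29, edgeR adjusted p = 0.000115). Clock was higher at 24 h in all 4 livers than in any at 4 h, with 0.44 ± 0.17 on the log2 scale, and did not pass (edgeR adjusted p = 0.0691). It passed without replicate 4 of WT CD 4 h (edgeR adjusted p = 0.0445) or of WT CD 24 h (0.0453), and by DESeq2 (adjusted p = 0.0458). Arntl had a log2 fold change of 0.09 ± 0.35 and a 95% interval of -0.63 to 0.82. Nr1d1 ranged from 8.12 to 86.1 CPM at 24 h, against 75.9 to 101 CPM at 4 h, and did not pass (edgeR adjusted p = 0.214).

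In KO CD livers Per3 passed, where 18.7% of all genes were called. It had 22.8, 7.12, 27.3 and 66.4 CPM at 24 h, against 11.5, 9.01, 4.52 and 11.3 CPM at 4 h (log2 fold change 1.77 ± 0.54, edgeR adjusted p = 0.022). Replicate 4, at 66.4 CPM, stood far above the rest, and replicate 2, at 7.12 CPM, lay within the 4 h group. Without KO CD 24 h replicate 4 the log2 fold change was 1.09 and did not pass (edgeR adjusted p = 0.159), nor did it without the 2 libraries near the other diet (1.09 ± 0.47, 0.117), nor did it without KO CD 4 h replicate 2 (1.76, 0.0517) or replicate 3 (1.54, 0.0692). Without the 4 libraries with muscle transcripts, which leaves replicate 4 as 1 of 2 in KO CD 24 h, Per3 passed with 2.37 (edgeR adjusted p = 0.00283), and Nr1d2 passed with 0.78 (edgeR adjusted p = 0.0059). In that fit 28.8% of all genes were called. Nr1d2 had 0.42 ± 0.20 over all libraries (edgeR adjusted p = 0.134) and 0.21 ± 0.20 (edgeR adjusted p = 0.494) without the 2 near the other diet. Per1 had 54.8, 22.9, 26.8 and 39.8 CPM at 24 h, against 40.9, 54.7, 12.8 and 30.6 CPM at 4 h, with a 95% interval of -0.53 to 0.64 on the log2 scale, and 0.02 ± 0.31 without the 2 libraries. The genotype difference in the fasting response of Per1 on CD was -1.64 ± 0.40 and did not pass (edgeR adjusted p = 0.055), with -1.69 ± 0.44 (edgeR adjusted p = 0.0979) without the 2 libraries. No other member had an unadjusted p under 0.05 in that test, while 1634 of the 14438 genes did. There edgeR called 0 and DESeq2 1 of the 10, and 0.61% of all genes were called. Per1 passed by DESeq2 (adjusted p = 0.00985), without the filter on low counts (edgeR adjusted p = 0.0359) and without the libraries with muscle transcripts (0.0304). It also passed when replicate 3 of KO CD 4 h (0.00512), replicate 1 of KO CD 24 h (0.0177) or replicate 2 (0.0469) or 4 (0.0401) of WT CD 24 h was left out. Of the Kupffer cell and macrophage markers 5 of 8 were lower at 24 h in KO CD livers, with sums of 118 to 211 CPM at 24 h, against 263 to 320 CPM at 4 h, and their part was not tested.

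In KO KD livers Arntl passed, where 9.38% of all genes were called. It had 5.52, 4.69, 6.94 and 12.6 CPM at 24 h, against 3.19, 3.02, 1.34 and 1.70 CPM at 4 h, without overlap (log2 fold change 1.65 ± 0.40, edgeR adjusted p = 0.00925). Replicate 4, at 12.6 CPM, was the highest at 24 h. Without it the log2 fold change was 1.29 (edgeR adjusted p = 0.0555), and without both it and KO CD 24 h replicate 4 it was 1.29 (0.0368). Per2 was lower in all 4 livers at 24 h than in any at 4 h, with 25.4, 27.5, 28.7 and 11.99 CPM, against 30.6, 38.01, 58.6 and 42.6 CPM, and -0.85 ± 0.31 did not pass (edgeR adjusted p = 0.0724, DESeq2 adjusted p = 0.0498). Leaving out the 2 libraries gave -0.64 ± 0.28 (edgeR adjusted p = 0.186). Per3 had 43.5, 62.2, 47.9 and 10.8 CPM at 24 h, against 45.3, 51.7, 59.2 and 49.7 CPM at 4 h, with a 95% interval of -1.37 to 0.73 on the log2 scale, around -0.32 ± 0.51 over all libraries. Per3 without the 2 libraries was at -0.01 (edgeR adjusted p = 0.996). Of the hepatocyte markers 2 of 6 were higher at 24 h in KO KD livers and of the Kupffer cell and macrophage markers 3 of 8 were lower. In the same livers 1 of 5 sinusoidal endothelium and 1 of 3 erythroid markers and the pancreas gene were lower and the adipocyte gene was higher. The adipocyte list summed to 12.8 to 15.7 CPM in replicates 1 to 3 and 0.292 CPM in replicate 4 at 24 h, against 1.97 to 4.57 CPM at 4 h. The part of these was not tested. The difference between KO and WT in these fasting responses on KD passed for 0 of 10 members by edgeR and by DESeq2, where 0.256% of all genes were called. It passed for 0 members without the 2 libraries. An unadjusted p under 0.05 was found for 6 members over all libraries, beside 2030 of the 14438 genes. Without the libraries with muscle transcripts Nr1d1 passed (-2.08 on the log2 scale, edgeR adjusted p = 0.0451).

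Whether the diet response itself differed between fasting times was tested as an interaction. In WT livers 6 of 10 members passed, 3 positive and 3 negative, where 7.6% of all genes were positive, 5.26% negative and 12.9% called in either direction. The KD minus CD difference at 24 h, less that at 4 h, was 3.15 ± 0.55 for Arntl (edgeR adjusted p = 0.000311) and 2.15 ± 0.66 for Nr1d1 (0.0284) on the log2 scale. It was -2.01 ± 0.41 for Per1 (edgeR adjusted p = 0.00132), -2.65 ± 0.76 for Per3 (0.0206) and -0.90 ± 0.28 for Nr1d2 (0.0328). Npas2 passed as well (edgeR adjusted p = 0.00867), with a fitted size that rests on the 7 counts of WT KD at 4 h. The interaction subtracts the diet response at 4 h, so its sign is not independent of that response. The call of Nr1d1 was lost without WT KD 4 h replicate 3 (edgeR adjusted p = 0.0535) or replicate 4 (0.0557), WT CD 24 h replicate 2 (0.0616) or WT KD 24 h replicate 3 (1.64 on the log2 scale, 0.0997), and in a fit of the 4 WT groups alone (0.0816). That of Nr1d2 was lost without any 1 of 8 libraries. These were WT CD 4 h replicates 1, 2 and 4, WT KD 4 h replicate 1, WT CD 24 h replicate 3 and WT KD 24 h replicates 2, 3 and 4, with adjusted p from 0.0515 to 0.0768 and a size from -0.92 to -0.78. Per2, at -1.12 ± 0.44 (edgeR adjusted p = 0.0889), passed without the libraries with muscle transcripts (-1.34, 0.0418), without replicate 4 of KO CD 24 h and of KO KD 24 h (-1.15, 0.0411), and without replicate 1 of WT CD 24 h (-1.34, 0.0432). Thra also passed (1.04 ± 0.20, edgeR adjusted p = 0.000955), and its part in the Nr1d1 result was not tested.

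In KO livers the same interaction passed for 0 of 10 members by edgeR and by DESeq2, where 1.39% of all genes were called. An unadjusted p under 0.05 was found for 4 members, beside 2168 of the 14438 genes. Arntl had 1.66 ± 0.53 (edgeR adjusted p = 0.109), Per3 -2.09 ± 0.74 (0.152) and Nr1d2 -0.74 ± 0.28 (0.195). All 3 were smaller without the 2 libraries near the other diet, 1.04 ± 0.49 (edgeR adjusted p = 0.479) for Arntl, -1.10 ± 0.65 (0.611) for Per3 and -0.47 ± 0.28 (0.616) for Nr1d2. Without the libraries with muscle transcripts, where replicate 4 is 1 of the 2 left in KO CD 24 h, Per3 (-2.71, edgeR adjusted p = 0.0369) and Nr1d2 (-1.06, 0.0276) passed. In that fit 3.91% of all genes were called. A difference between the genotypes in the diet response passed for 0 members at 4 h, where 0.104% of all genes were called, and for 0 at 24 h, where 0% were. DESeq2 and the fit without the 2 libraries also called 0 at each time. An unadjusted p under 0.05 was found for 5 members at 4 h and 0 at 24 h, beside 1120 and 1221 of the 14438 genes. The diet responses of Arntl at 4 h were thus not shown to differ between genotypes, with 1.35 ± 0.57 for Arntl (edgeR adjusted p = 0.541).

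Loss of Fatp2 was set against WT within each diet and fasting time, and few members differed. On KD at 4 h Cry1 was lower and Nr1d1 higher in KO livers, 2 of 10 members, where 2.81% of all genes were called. Cry1 had 3.88, 4.76, 6.42 and 4.16 CPM in KO livers, against 9.39, 11.8, 12.2 and 15.5 CPM in WT livers, without overlap (log2 fold change -1.35 ± 0.26, edgeR adjusted p = 0.00256). Nr1d1 had 109, 116, 44.9 and 69.2 CPM in KO livers, against 31.3, 27.8, 21.9 and 14.97 CPM in WT livers, also without overlap (log2 fold change 1.82 ± 0.47, edgeR adjusted p = 0.028). The Nr1d1 call was lost without KO KD 4 h replicate 1 (edgeR adjusted p = 0.092) or 2 (0.102), or WT KD 4 h replicate 3 (0.0902) or 4 (0.0949). Thra was higher in KO livers in the same comparison (0.77 ± 0.14, edgeR adjusted p = 0.00186), and its part in the Nr1d1 counts was not tested. Npas2 had 8, 10, 6 and 4 counts in KO livers, against 2, 3, 0 and 2 in WT livers, a ratio of 4.06 with a 95% counting interval of 1.73 to 11.004, and did not pass (edgeR adjusted p = 0.333). The Kupffer cell and macrophage markers summed to 224 to 360 CPM in these KO livers, against 339 to 474 CPM in the WT livers. Of the 8, edgeR called 0, and 5 had an unadjusted p under 0.05, beside 2176 of the 14438 genes. The part of these markers was not tested.

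Cry1 had the same sign in the other 3 genotype comparisons without passing. Its log2 fold change was -0.60 ± 0.25 on CD at 4 h (edgeR adjusted p = 0.388), -0.63 ± 0.26 on CD at 24 h (0.212) and -0.56 ± 0.26 on KD at 24 h (0.242). Those at 24 h without the 2 libraries were -0.46 ± 0.27 (edgeR adjusted p = 0.554) on CD and -0.63 ± 0.28 (0.26) on KD. All 4 point estimates were below 0, and the groups overlapped in these 3.

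On CD at 4 h Per1 was the member called, where 1.83% of all genes were. It had 40.9, 54.7, 12.8 and 30.6 CPM in KO livers, against 19.4, 19.2, 10.7 and 16.9 CPM in WT livers, and KO replicate 3 lay inside the WT range. The log2 fold change was 1.07 ± 0.29, at the edge of the threshold (edgeR adjusted p = 0.0495). The call was lost without any 1 of 7 of the 8 libraries, all but KO CD 4 h replicate 3, with adjusted p from 0.0647 to 0.304 and a log2 fold change from 0.76 to 1.16. It was also lost in a fit of the 8 libraries alone (0.12) and without the 2 libraries of KO livers at 24 h, which are in neither group (0.0583).

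After 24 h of fasting 0 members differed between the genotypes on CD, where 2.07% of all genes were called, and 0 on KD, where 3.95% were. On CD 3 members had an unadjusted p under 0.05 and DESeq2 called 1, and on KD 4 did and DESeq2 called 0. Beside these, 2249 of the 14438 genes had an unadjusted p under 0.05 on CD and 2772 on KD. Per3 had the largest fold changes. It had 22.8, 7.12, 27.3 and 66.4 CPM in KO CD livers, against 6.51, 4.87, 15.2 and 12.1 CPM in WT CD livers (1.68 ± 0.54, edgeR adjusted p = 0.0966). On KD it had 43.5, 62.2, 47.9 and 10.8 CPM in KO livers, against 7.45, 17.3, 27.7 and 17.2 CPM in WT livers (1.24 ± 0.52, edgeR adjusted p = 0.189). On each diet replicate 4 of the KO group was the value farthest out, in opposite directions, and without both the log2 fold change was 1.01 on CD (edgeR adjusted p = 0.4) and 1.57 on KD (0.0643).

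Nr1d2 had 75.4, 74.9, 119.5 and 149.8 CPM in KO CD livers at 24 h, against 53.2, 69.4, 81.8 and 60.2 CPM in WT CD livers (0.67 ± 0.20, edgeR adjusted p = 0.076). DESeq2 called it (adjusted p = 0.0321), as did edgeR without KO CD 24 h replicate 1 (0.037) or 2 (0.0313) or WT CD 24 h replicate 3 (0.0399). Nr1d2 was smaller without the 2 libraries near the other diet, with 0.46 ± 0.20 (edgeR adjusted p = 0.351). Without the libraries with muscle transcripts, where replicate 4 is 1 of the 2 left in KO CD 24 h, both Nr1d2 (0.93, edgeR adjusted p = 0.00595) and Per3 (2.12, 0.0204) passed, and Per3 also passed without KO CD 24 h replicate 2 (2.03, 0.0313). Without the libraries with muscle transcripts 15.2% of all genes were called in this comparison. At 24 h 7 of the 8 Kupffer cell and macrophage markers were lower in KO livers on CD, with sums of 118 to 211 CPM in KO livers and 227 to 681 CPM in WT livers, and 6 of 8 were lower on KD. Their part in the clock values was not tested.

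**Figure D3:**
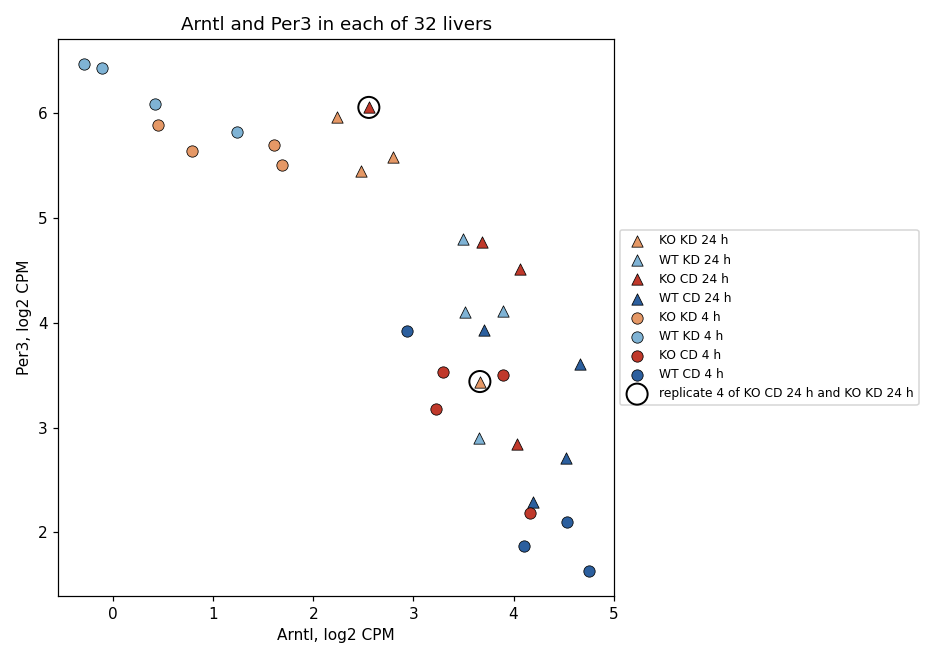
Arntl (horizontal) against Per3 (vertical), both in log2 CPM, in each of the 32 livers, with color for genotype and diet, triangles for 24 h, circles for 4 h and rings around replicate 4 of KO CD 24 h and of KO KD 24 h. The KD livers at 4 h lie at the upper left and the CD livers at the lower right, and each ringed liver lies toward those of the other diet.

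The balance of the activator Arntl and the repressor Per3 placed every liver on a common scale. The log2 ratio of Arntl to Per3 had a median of -4.47 in KO KD livers (-5.44 to -3.82) and 0.225 in KO CD livers (-0.24 to 1.98) at 4 h. In WT livers at 4 h the median was -6.10 on KD (-6.76 to -4.58) and 2.34 on CD (-0.99 to 3.11). At 24 h it was -2.88 in KO KD livers (-3.72 to 0.22), -0.77 in KO CD livers (-3.50 to 1.20), -0.40 in WT KD livers (-1.30 to 0.76) and 1.44 in WT CD livers (-0.23 to 1.90). The diet groups were apart at 4 h in both genotypes and overlapped at 24 h in both. Without replicate 4 of each group, KO KD livers ran from -3.72 to -2.78 at 24 h and KO CD livers from -1.09 to 1.20, without overlap. The ratio was chosen with these values known and is a description.

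Members also varied together between livers of the same group. After each group's mean log2 CPM was removed, the deviations of all 45 pairs of members were correlated over the 32 livers, with permutation within groups (100000 resamples). Of the 45, 20 passed an adjusted p of 0.05 by Pearson's r and 17 by both Pearson's r and Spearman's rho. The share of pairs of other genes that would pass was not computed. These counts keep the 2 livers near the other diet, and no pair was tested without them. Leaving them out took r from -0.57 to -0.39 for Arntl and Per2 and from -0.47 to -0.27 for Npas2 and Per2. For Cry1 and Nr1d1 it took r from -0.68 to -0.73. Arntl and Nr1d2 had the strongest relation, with r = -0.80 and rho = -0.82, both with the smallest permutation p that the resamples allow (1e-05, adjusted 0.00045). Without the 2 livers farthest from the median it was -0.76, and without the 2 livers near the other diet it was -0.76.

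Within the activator arm and within the period genes 1 pair each passed. Arntl and Npas2 had r = 0.71 (rho = 0.66, adjusted permutation p = 0.00545 and 0.0066), 0.57 without the 2 farthest livers and 0.60 without the 2 near the other diet. Per2 and Per3 had r = 0.73 (rho = 0.73, adjusted permutation p = 9e-04 for each), 0.65 without the 2 farthest and 0.58 without the 2 near the other diet. The other pairs within these arms did not pass, with r from 0.14 for Per1 and Per3 to 0.42 for Arntl and Clock (adjusted permutation p = 0.65 and 0.0696). Between the arms, Arntl and Per3 had r = -0.71 (rho = -0.67, adjusted permutation p = 0.00195 and 0.003), -0.59 without the 2 farthest and -0.57 without the 2 near the other diet. Nr1d1 did not pass with Arntl (r = -0.16, adjusted permutation p = 0.465) or with Nr1d2 (r = 0.009, 0.989). It passed with Cry2 (r = 0.74, rho = 0.70, adjusted permutation p = 0.00225 and 0.00477) and with Cry1 (r = -0.68, rho = -0.71, 0.00351 and 0.00315). Per1 showed little relation to Arntl, with r = -7e-04 (rho = 0.06, permutation p = 0.997 and 0.773). All libraries share the same normalisation, and Npas2 deviations in WT KD livers at 4 h come from 0 to 3 counts.

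**Figure D4:**
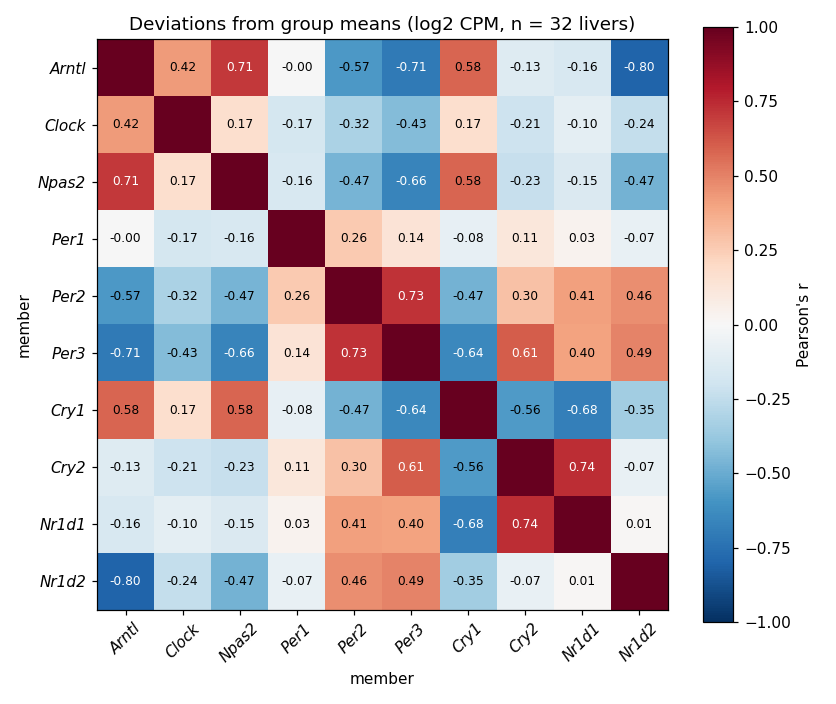
Pearson's r between members for deviations of log2 CPM from group means over 32 livers, with red for positive and blue for negative values. Arntl is positive with Npas2 (0.71) and negative with Nr1d2 (-0.80) and Per3 (-0.71). Nr1d1 is positive with Cry2 (0.74), negative with Cry1 (-0.68) and at -0.16 with Arntl.

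Over all 32 livers, group differences included, the tested genes with official symbols whose log2 level followed Arntl most closely were Tab2 (r = 0.95), Lrfn3 (0.95), Mmp14 (0.94), Clpx (0.94) and Blcap (0.93). The most opposite were Nr1d2 (r = -0.93), Ngef (-0.92), Azin1 (-0.91), Wee1 (-0.90), a kinase that restrains entry into mitosis, and Tppp (-0.90). For Nr1d1 the most alike were Wwc1 (r = 0.88), Tmem63b (0.87), Fbxo21 (0.84), Hsd3b7 (0.84) and Acad8 (0.84), and the most opposite Mbnl2 (-0.87), Clec1b (-0.87), Pik3c2a (-0.84), Ifrd1 (-0.83) and Kitl (-0.82). These are the extremes of the tested genes with official symbols, since predicted genes and similar names were left out, and they carry no test.

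Accessory and output genes of the clock, a list of 17, moved with diet at 4 h in WT livers, with 7 higher and 2 lower on KD, where 27.3% of all genes were called (median log2 fold change 1.16, beside 0.03 over all genes). The largest changes were in Ciart, a repressor of the activator pair (5.23 ± 0.77, edgeR adjusted p = 1.52e-05), Usp2, a clock-driven deubiquitinase (4.50 ± 0.51, 3.92e-07), Nampt, the rate-limiting enzyme of NAD salvage (2.09 ± 0.16, 7.62e-10), and the D-box activator Dbp (1.97 ± 0.66, 0.0263). In KO livers 5 were higher and 1 lower, where 7.22% of all genes were called, with Ciart at 2.55 ± 0.64 (edgeR adjusted p = 0.0146), Usp2 at 2.30 ± 0.45 (0.00215), the D-box activator Tef at 1.24 ± 0.25 (0.00318) and the D-box repressor Nfil3 at -1.06 ± 0.23 (0.00507). At 24 h edgeR called 0 of the 17 by diet in either genotype. An unadjusted p under 0.05 was found for 3 in KO livers and 4 in WT livers, beside 1766 and 2334 of the 14438 genes. Without the 2 libraries near the other diet 1 was called in each genotype, where 0.355% of all genes were called in KO livers and 3.25% in WT livers.

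With fasting in WT KD livers 1 of the 17 was higher and 5 lower at 24 h, where 10.9% of all genes were called, among them Usp2 (-1.89 ± 0.44, edgeR adjusted p = 0.0053). In WT CD livers 3 were higher and 1 lower, a share near the 18.5% of all genes, with Ciart up (2.40 ± 0.79, edgeR adjusted p = 0.0319) and Bhlhe40, an E-box repressor, down (-1.65 ± 0.35, 0.00131). KO CD livers had 3 higher and 3 lower, where 18.7% of all genes were called, with Ciart (2.01 ± 0.64, edgeR adjusted p = 0.0281) and the deadenylase gene Noct (-1.64 ± 0.55, 0.0361) at the extremes. Without the 2 libraries near the other diet 1 was higher and 1 lower in KO CD livers, where 12.6% of all genes were called. Ciart (1.60 ± 0.66, edgeR adjusted p = 0.106) and Noct (-1.53 ± 0.62, 0.0987) did not pass in that fit. KO KD livers had 1 higher, Rora (0.50 ± 0.13, edgeR adjusted p = 0.0139), and 0 lower, where 9.38% of all genes were called, and Rora had 0.49 ± 0.14 without the 2 libraries (0.0401). The diet by fasting interaction in WT livers called 7 of the 17, 1 positive and 6 negative, where 12.9% of all genes were called, led by Usp2 (-3.66 ± 0.66, edgeR adjusted p = 0.00046).

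Between genotypes 2 of the 17 were lower in KO livers on KD at 4 h, where 2.81% of all genes were called, among them Nampt (-1.15 ± 0.15, edgeR adjusted p = 2.28e-05). On KD at 24 h 1 was called, Nfil3, lower in KO livers (-1.08 ± 0.23, edgeR adjusted p = 0.00619, and -1.15 ± 0.25, 0.00914 without the 2 libraries), where 3.95% of all genes were called. On CD edgeR called 0 of 17 at either time, where 1.83% of all genes were called at 4 h and 2.07% at 24 h. Of the 17, 3 had an unadjusted p under 0.05 at 4 h and 7 at 24 h, beside 1337 and 2249 of the 14438 genes. Without the libraries with muscle transcripts 3 were higher and 1 lower in KO livers on CD at 24 h, where 15.2% of all genes were called. That fit leaves replicate 4 as 1 of 2 in KO CD 24 h. Without the 2 libraries near the other diet 0 were higher and 0 lower in this comparison, where 0.785% of all genes were called. The diet response at 4 h differed between genotypes for 1 of the 17, Nampt (-1.28 ± 0.21, edgeR adjusted p = 0.0125), where 0.104% of all genes were called. The fasting response on KD differed for 2 of the 17, where 0.256% of all genes were called. Nampt was 1 of these 2 (1.32 ± 0.21, edgeR adjusted p = 0.00302, and 1.39 ± 0.22, 0.00306 without the 2 libraries).

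Since Per1 and Per2 also answer to hormones, 12 genes known to respond to glucocorticoids or cAMP were counted, Per1 among them. On KD at 4 h 4 were higher and 0 lower in WT livers, a share near the 27.3% of all genes called in either direction. The 4 include Per1 itself, the metallothionein Mt2 (3.77 ± 1.12, edgeR adjusted p = 0.0139) and Fkbp5, a glucocorticoid receptor cochaperone (2.35 ± 0.53, 0.00178). In KO livers at 4 h 0 were higher and 5 lower on KD, where 7.22% of all genes were called, including the tyrosine-degrading enzyme Tat (-1.75 ± 0.48, edgeR adjusted p = 0.0244) and the gluconeogenic enzymes G6pc (-1.56 ± 0.44, 0.0298) and Pck1 (-1.55 ± 0.40, 0.0169). The genotype difference in the diet response at 4 h passed edgeR for 0 of the 12, where 0.104% of all genes were called. An unadjusted p under 0.05 was found for 6 of the 12 there, beside 1120 of the 14438 genes. At 24 h against 4 h the counts were 6 higher, with Per1 itself among the 6, and 0 lower in WT CD livers. They were 2 and 1 in KO CD livers, 2 and 0 in KO KD livers, and 0 and 0 in WT KD livers. In WT KD livers 1 had an unadjusted p under 0.05, beside 3561 of the 14438 genes. Of all genes 18.5%, 18.7%, 9.38% and 10.9% were called in these 4 comparisons. Without the libraries with muscle transcripts 0 were higher and 3 lower on KD at 4 h in KO livers, where 5.96% of all genes were called. In that fit, which leaves replicate 4 as 1 of 2 in KO CD 24 h, 2 were higher and 3 lower at 24 h in KO CD livers. There 28.8% of all genes were called. Without the 2 libraries near the other diet 2 were higher and 1 lower in KO CD livers, where 12.6% of all genes were called. Without the 2 libraries near the other diet edgeR called 0 in KO KD livers at 24 h against 4 h, where 5.5% of all genes were called. By diet at 24 h in KO livers 0 were higher and 2 lower in that fit, where 0.355% of all genes were called, against 0 of the list over all libraries. In WT CD livers Fkbp5 was 2.49 ± 0.54 higher at 24 h (edgeR adjusted p = 0.00132), beside 1.70 ± 0.29 for Per1.

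Body temperature follows fasting and the clock in rodents, and 8 heat shock and cold-inducible genes were counted. At 24 h against 4 h Cirbp, a cold-inducible RNA-binding protein, rose in KO CD (1.32 ± 0.23, edgeR adjusted p = 0.000271), WT CD (0.68 ± 0.23, 0.0344), KO KD (1.16 ± 0.23, 0.0022) and WT KD livers (0.97 ± 0.23, 0.00546). Rbm3, of the same kind, rose in KO CD (1.45 ± 0.24, edgeR adjusted p = 0.000133), WT CD (1.45 ± 0.24, 6.08e-05) and KO KD livers (1.38 ± 0.24, 0.000598). In WT KD livers Rbm3 did not pass (0.48 ± 0.23, edgeR adjusted p = 0.202). Hspa8, a heat shock gene, rose in WT CD livers (0.997 ± 0.26, edgeR adjusted p = 0.00629) and did not pass in KO CD, KO KD or WT KD livers. Of all genes 18.7%, 18.5%, 9.38% and 10.9% were called at 24 h against 4 h in KO CD, WT CD, KO KD and WT KD livers. Hspa1a and Hspa1b, near-identical copies whose counts are uncertain, were lower in KO CD livers, with Hspa1b at a mean of 1.40 CPM at 24 h, against 15.1 CPM at 4 h. Without the 2 libraries near the other diet the log2 fold change was 1.38 ± 0.25 for Cirbp and 1.46 ± 0.26 for Rbm3 in KO CD livers, 1.21 ± 0.25 and 1.46 ± 0.26 in KO KD livers, and -3.31 ± 0.63 for Hspa1b in KO CD livers, and all 5 passed (edgeR adjusted p from 0.000621 to 0.00548). With diet at 4 h 1 of the 8 was lower on KD in KO livers, where 7.22% of all genes were called. In WT livers 1 was higher and 1 lower, a share near the 27.3% of all genes called. The lower one in KO livers was not called without either set of libraries.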

How the data were processed

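PolyA RNA of 32 whole livers was sequenced, 4 samples in each of 8 groups, after preparation with an Illumina TruSeq kit, per the labels' protocols. The deposited table gives read counts per gene and FPKM. Bowtie2 2.2.3, TopHat2 2.0.12, HTSeq 0.6.1 and build GRCm38 (mm10) are named in the submitters' processing notes. For the annotation release and the strand setting nothing is given in the sources used here. The deposited FPKM equalled the count over gene length and total count in 100% of values, within 0.1%, and were used for levels compared between genes. A spreadsheet had turned 27 symbols into dates, restored by identifier, and 10278 genes had no read.

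The deposited counts were tested with edgeR 4.0.16 in R 4.3.3 (quasi-likelihood test, TMM, filterByExpr), with 1 mean per group over all 32 libraries, 24 residual degrees of freedom and a common biological coefficient of variation of 0.235. The 12 pairwise contrasts and 6 interactions were two-sided. Adjusted p are Benjamini-Hochberg values over 14438 genes, called under 0.05. SE is the fold change over the square root of F. P-values measure the spread between these samples, which were numbered in order of deposit. The 48 replicate pairs had a chi-square per degree of freedom of 7.50 to 236, so none agreed within sampling noise. The fit was also run on counts simulated from its own dispersions, with known changes set in genes of higher count. That run does not cover exchanged libraries, muscle transcripts or low counts such as those of Npas2, and its outcome is not reported here. Counting intervals cover counting error only.

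The members and gene lists were chosen with earlier results of these data known. Named genes are all members, and up to 4, 3 and 3 called genes of largest fold change per contrast in the accessory clock, glucocorticoid and heat shock lists, of which some are not reported here. Alternatives were RLE scaling, no filter, the contrast's own groups, DESeq2 1.42.0 and each library left out. The fits without the 4 libraries with muscle transcripts and without the 2 near the other diet were chosen after seeing the data, for members and lists.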

Additional observations from a re-analysis of the deposited data

Results flagged for a closer look

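In 80 combinations of member and group, 7 held a library set apart from the other 3 by Dixon's test at the 95% level, where chance flags about 1 in 20. Clock had 28.2 CPM in KO KD 4 h replicate 3, the lowest of its group. Npas2 had 0 CPM in WT KD 4 h replicate 3, beside 2 or 3 counts in the others, and 2.12 CPM in KO KD 24 h replicate 4, the highest of its group. Per2 had 54.1 CPM in WT KD 4 h replicate 4, below the rest. WT CD 4 h replicate 3 was flagged for Per3 at 15.1 CPM and for Nr1d2 at 89.6 CPM, both above the rest of the group. Nr1d1 had 138 CPM in KO CD 4 h replicate 2.

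The difference between fasting times in the response to KD passed its own test in WT livers for 6 members. The log2 differences were 3.15 for Arntl, 4.03 for Npas2 (a fitted value that rests on 7 counts), 2.15 for Nr1d1, -2.01 for Per1, -2.65 for Per3 and -0.90 for Nr1d2.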

How the results depend on the processing

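No result changed direction past the threshold under any alternative. Over members and contrasts, under alternatives that kept or removed whole sets, 8 values lost a call, 16 gained one and 1055 were unchanged. With 1 library left out 39 lost a call, 13 gained one and 1868 were unchanged. The unchanged values include those not called in either fit, so they do not give the share of calls that held. The number of members called in KD against CD in KO at 4 h was 5, against 6 over all libraries, with RLE scaling, without the filter, with the groups of the contrast alone and without the 4 libraries with muscle transcripts. With the groups of the contrast alone it was 9 in WT at 4 h, against 8, and 5 in diet by fasting in WT, against 6. Diet by fasting in WT had 7 without the 4 libraries and without the 2, and 24 h against 4 h in WT KD had 7, against 6, without the 4. Counts also moved by over 1.5 times, or to or from 0, as follows. Without the filter, genotype by fasting on CD had 1. With the groups of the contrast alone, KO against WT (CD, 4 h) had 0. DESeq2 called 1 in KO against WT (CD, 24 h), 2 in 24 h against 4 h in WT CD, 2 in KO KD, and 1 in genotype by fasting on CD. Without the 4 libraries with muscle transcripts there were 2 in KO against WT (CD, 24 h), 2 in 24 h against 4 h in KO CD, 2 in diet by fasting in KO, and 1 each in genotype by fasting on CD and on KD. Without the 2 libraries near the other diet there were 0 in KO against WT (CD, 4 h) and 0 in 24 h against 4 h in KO CD. With each library left out in turn the count ran from 0 to 1 in KO against WT (CD, 4 h), in 24 h against 4 h in KO CD and in KO KD, in genotype by fasting on CD and in genotype by diet at 4 h. It ran from 0 to 2 in KO against WT (CD, 24 h), from 1 to 2 in KO against WT (KD, 4 h) and in 24 h against 4 h in WT CD, from 4 to 5 in KD against CD in KO at 4 h, from 7 to 8 in WT at 4 h, from 6 to 7 in 24 h against 4 h in WT KD and from 4 to 7 in diet by fasting in WT, and stayed 0 elsewhere. The cause of these moves was not tested. Over all genes, DESeq2 called 113 in KD against CD in KO at 24 h, against 1 with edgeR, and 52 were called by edgeR without the 2 libraries. No paired analysis was possible because the labels give no replicate number shared between groups. Depth limits Npas2, at or below 3 counts per library in WT KD at 4 h.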
